A study of Rattus norvegicus with 8 samples.

Results

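The chemokine genes described here are Ccl2, Ccl5, Ccl7, Cxcl1, Cxcl9, Cxcl10, Cxcl11, Cxcl12, Cxcl16 and Cx3cl1. They are 10 of the 14217 rat genes that the array measures with probe sets of a single gene. They were chosen by name, with earlier results of these data known. A probe set is a group of short oligonucleotides that measures 1 transcript, and the 10 genes are covered by 13 of the 31042 probe sets tested. Ccl2, Ccl5, Ccl7, Cxcl1, Cxcl10, Cxcl11, Cxcl16 and Cx3cl1 have 1 probe set each, Cxcl9 has 2 and Cxcl12 has 3, and where a gene has several, the one with the highest mean over all arrays stands for the gene. Glomerular RNA was measured on Affymetrix rat genome arrays in Dahl SS rats (referred to here as Dahl rats), a salt-sensitive strain that becomes proteinuric spontaneously, and in spontaneously hypertensive rats (SHR rats), which become hypertensive without proteinuria. The 4 groups were Dahl rats at 6 weeks, Dahl rats at 4 weeks, SHR rats at 6 weeks and SHR rats at 4 weeks, with 2 rats and 1 array per rat in each. No group received a drug or carried an engineered allele in the labels, and the study's methods describe male rats of both strains on a low-salt diet, whose glomeruli were isolated magnetically from the left kidney. In the study's rats, proteinuria began at 6 weeks of age in the Dahl strain. Hypertension began in both strains, to a similar extent, only at an age later than those measured here. The strains differ at many loci, so no strain difference can be tied to 1 of them, and no strain that stays free of hypertension was measured.

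Chemokines are small secreted proteins that direct the migration of leukocytes by binding G protein-coupled receptors on them. Most inflammatory chemokines are induced in resident cells, including glomerular endothelial, mesangial and epithelial cells, by cytokines that act through NF-kB or through interferon signalling, while Cxcl12 is made constitutively by many stromal cells. Cx3cl1 and Cxcl16 differ from the rest in being made as transmembrane proteins, which act as adhesion molecules on the cell and as attractants once shed from it.

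The sequences just upstream of 4 of the genes are given first. In 3 of the windows, all but that of Cxcl9, stand exact matches to letters that NF-kB or interferon-activated factors are known to bind. Only the letter patterns given below were searched, so a window without a match is not shown to lack such sites. The measured patterns of these genes differed, and a link of the letters to them was not tested. Cxcl11, Cxcl10 and Cxcl9 follow each other directly on rat chromosome 14 and encode the ligands of 1 receptor, Cxcr3, while Cxcl1 lies elsewhere on the same chromosome. Each run holds the 250 bases before the start of the gene, 5′ to 3′ on the gene's own strand, from RefSeq's GRCr8 assembly, which is not a sequence of the Dahl or SHR strain. The windows are chr14:15973478-15973727 on the plus strand for Cxcl11, chr14:15988816-15989065 on the plus strand for Cxcl10, chr14:16006916-16007165 on the plus strand for Cxcl9 and chr14:17479322-17479571 on the minus strand for Cxcl1. Capitals mark matches on either strand to the kappaB letters (GGGA, any 2 bases, TTCC), the interferon-stimulated response element letters (GAAA, any 2 bases, GAAA) or the gamma-activated site letters (TTC, any 3 bases, GAA).
Cxcl11: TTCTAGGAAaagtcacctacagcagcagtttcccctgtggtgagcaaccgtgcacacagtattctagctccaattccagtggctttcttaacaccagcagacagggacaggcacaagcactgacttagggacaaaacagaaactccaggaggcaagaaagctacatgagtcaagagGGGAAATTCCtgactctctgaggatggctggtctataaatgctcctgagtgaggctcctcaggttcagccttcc
Cxcl10: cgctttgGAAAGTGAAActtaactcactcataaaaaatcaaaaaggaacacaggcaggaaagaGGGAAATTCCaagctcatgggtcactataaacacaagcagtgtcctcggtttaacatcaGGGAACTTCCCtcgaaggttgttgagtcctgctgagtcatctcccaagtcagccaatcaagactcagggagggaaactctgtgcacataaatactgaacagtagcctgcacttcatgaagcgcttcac
Cxcl9: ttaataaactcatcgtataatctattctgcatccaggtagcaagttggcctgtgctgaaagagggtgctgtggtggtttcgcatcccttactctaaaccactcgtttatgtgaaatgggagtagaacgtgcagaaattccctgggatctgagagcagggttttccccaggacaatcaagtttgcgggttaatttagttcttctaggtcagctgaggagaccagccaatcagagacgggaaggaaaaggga
Cxcl1: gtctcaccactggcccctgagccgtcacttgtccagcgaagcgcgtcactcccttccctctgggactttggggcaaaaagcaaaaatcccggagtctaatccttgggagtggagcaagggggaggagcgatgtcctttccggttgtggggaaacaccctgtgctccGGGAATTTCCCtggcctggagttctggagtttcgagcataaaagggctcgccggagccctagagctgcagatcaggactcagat

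Promoter windows were at hand for 8 of the 10 genes, all but Ccl2 and Ccl5. The kappaB letters stood in 4 of these 8 windows (Ccl7, Cxcl1, Cxcl10 and Cxcl11), and in 1.08% of all 33469 rat promoter windows of the same length. In the Cxcl10 window they matched on the plus strand from 187 to 178 and from 128 to 119 bases before the start, and the second match overlapped a match on the minus strand. The Cxcl1 window held a pair of matches that overlapped on opposite strands, from 84 to 74 bases before the start, and the Cxcl11 window held 1 match from 74 to 65 bases before the start. The interferon-stimulated response element letters were in the Cxcl10 window alone of the 8 (3.41% of all windows), and the gamma-activated site letters in the Cxcl11 window alone (7.67% of all windows). The windows of Cxcl9, Cxcl12, Cxcl16 and Cx3cl1 held none of the 3 motifs. These matches are letters in a window, and no binding was measured.

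All values below are the deposited log2 expression values of single arrays, on which a difference of 1 is a 2-fold difference, and 1 probe set's value cannot be set against another's as an amount of RNA. The 8 arrays had medians of 4.11 to 4.16, and over all probe sets the 2 arrays of a group correlated at 0.989 to 0.997, against 0.95 to 0.994 for arrays of different groups. The podocyte gene Nphs1 read between 11.84 and 12.65 in every array, so the defining podocyte marker was present, and the proximal tubule marker Slc34a1 read 12.15 to 13.62 in Dahl rats and 13.71 to 13.79 in SHR rats, so tubular RNA was also present. The proximal tubule score, the median deviation of 15 marker genes from their means over all arrays, was -1.94 to 0.06 in Dahl rats and 0.22 to 0.96 in SHR rats, with replicate 2 of Dahl 6 weeks at -1.94 standing apart from all others. Of the 10 chemokine genes, 6 had a mean above the median of all probe sets, and Cxcl9 was in the dimmest of 4 equal groups of probe sets by mean.

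Over both ages, 5 of the 10 chemokine genes were higher in Dahl than in SHR glomeruli at an adjusted p under 0.05, namely Ccl2, Cxcl10, Cxcl11, Cxcl16 and Cx3cl1, by 2.28-fold to 2.94-fold. Of all probe sets, 10.6% were called higher in this comparison. No chemokine gene of the 10 was called lower, where 24.2% of all probe sets were. These shares varied with signal. All 5 called genes were in the 2 brighter of 4 equal groups of probe sets by mean. In those groups 17.1% and 21.4% were called higher, against 0.193% and 3.58% in the 2 dimmer groups. Of the 7760 and 7761 probe sets in the brighter groups, 854 and 1015 were called lower. The median difference of the 10 was 0.90 on the log2 scale, beside -0.05 over all probe sets and -0.07 over 21 other chemokines. The 21 were mostly dimmer, with 3 above the median signal against 6 of the 10, and their median was -0.01 under quantile normalization. As the 10 were chosen with earlier results of these data known, these contrasts are no test of chemokines as a class. At 6 weeks 2 of the 10 were higher in Dahl (Cxcl11 and Cx3cl1, with 1.65% of all probe sets called higher) and 1 was lower (Cxcl12, with 1.63% called lower). At 4 weeks 4 of the 10 were higher (Ccl2, Cxcl10, Cxcl16 and Cx3cl1) and none lower, with 5.63% of all probe sets called higher and 1989 of 31042 called lower. The methods' t-test, with the same adjustment, called 1 of the 10 over both ages (Cx3cl1) and none at 6 weeks or at 4 weeks, where its unadjusted counts were 4 and 5.

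Age was compared within each strain. In SHR rats 4 of the 10 genes were higher at 6 weeks than at 4 weeks (Cxcl10, Cxcl12, Cxcl16 and Cx3cl1), with 1.50% of all probe sets called higher. In Dahl rats limma called none of the 10 between 6 and 4 weeks, as against 0.0805% of all probe sets in either direction, although Cxcl10, Cxcl11 and Cx3cl1 were higher at an unadjusted p under 0.05, and the methods' t-test called only Cxcl11 before adjustment and none after. It called none in SHR rats after adjustment and 5 before. Whether the strain difference at 6 weeks differed from that at 4 weeks was tested as an interaction, for which limma called none of the 10 by their main probe sets (0.519% of all probe sets), with 6 at an unadjusted p under 0.05. Among these 6, Cxcl11 had the larger Dahl excess at 6 weeks and the other 5, Ccl2, Cxcl10, Cxcl12, Cxcl16 and Cx3cl1, had it at 4 weeks.

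The SHR rats of 4 weeks were the lowest animals for most of these genes. In 6 of the 10 genes both SHR 4 weeks arrays lay below the other 6 arrays (Ccl2, Ccl5, Cxcl10, Cxcl12, Cxcl16 and Cx3cl1), a pattern held by 11.0% of all probe sets. Both Dahl 6 weeks arrays lay above the other 6 in Cxcl10, Cxcl11 and Cx3cl1, a pattern of 6.86% of all probe sets. In 2 genes, Cxcl16 and Cx3cl1, every Dahl array was above every SHR array, as in 8.15% of all probe sets. These patterns were counted after the values had been seen.

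**Figure D1:**
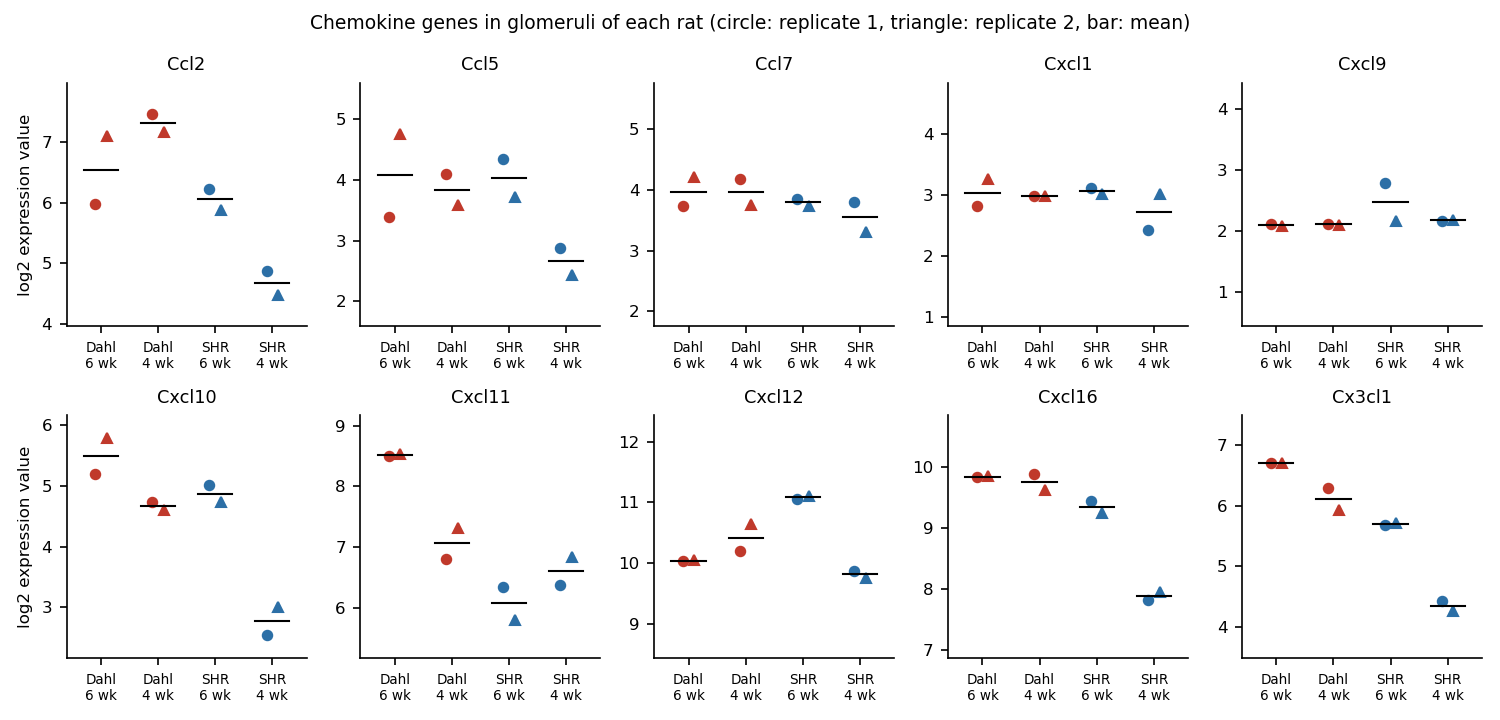
Log2 expression value (vertical axis, own range per gene) of the 10 chemokine genes in each of the 8 rats, by strain and age, with a circle for replicate 1, a triangle for replicate 2 and a bar for the mean. The SHR 4 weeks rats lie lowest in 6 genes, and Cxcl1, Ccl7 and Cxcl9 vary little between groups.

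Cx3cl1 (fractalkine), a membrane-bound chemokine of endothelium and epithelium that captures monocytes through Cx3cr1, had the smallest adjusted p of the 10 over both ages. Its log2 values were 6.71 and 6.69 in Dahl rats at 6 weeks, 6.28 and 5.93 in Dahl rats at 4 weeks, 5.69 and 5.72 in SHR rats at 6 weeks, and 4.42 and 4.27 in SHR rats at 4 weeks. The groups stood in that order without overlap. Dahl exceeded SHR by 1.38 ± 0.09 over both ages (SE, n = 4 rats per strain, adjusted p = 0.004), which is 2.60-fold. The difference was 1.00 ± 0.13 at 6 weeks (adjusted p = 0.0358) and 1.76 ± 0.13 at 4 weeks (adjusted p = 0.00633). In SHR rats Cx3cl1 was 2.56-fold higher at 6 than at 4 weeks (log2 difference 1.36, adjusted p = 0.0198), and in Dahl rats the same difference was 0.59 (adjusted p = 0.301). The calls over both ages and at 4 weeks held with any 1 array left out. The call at 6 weeks was lost without replicate 2 of Dahl 6 weeks, either SHR 6 weeks array or either SHR 4 weeks array (adjusted p 0.0733 to 0.133), and under quantile normalization (adjusted p = 0.0501). The age call in SHR was lost without any 1 of the 4 SHR arrays (adjusted p 0.05 to 0.107, that of 0.05 being just past the threshold).

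Cxcl16, the other transmembrane chemokine, which is the ligand of Cxcr6 and also a scavenger receptor for oxidized lipoprotein, was separated by strain as well. It read 9.84 and 9.86 in Dahl rats at 6 weeks, 9.90 and 9.63 in Dahl rats at 4 weeks, 9.45 and 9.26 in SHR rats at 6 weeks, and 7.82 and 7.95 in SHR rats at 4 weeks. The Dahl values hardly moved with age, and the SHR 4 weeks rats were far below all others. Over both ages it was 2.28-fold higher in Dahl (1.19 ± 0.08, SE, n = 4 per strain, adjusted p = 0.00482). At 6 weeks the difference was 0.50 ± 0.12 (adjusted p = 0.0817) and at 4 weeks 1.88 ± 0.12 (adjusted p = 0.00471), or 3.68-fold. The interaction was -1.38 ± 0.16 with an adjusted p of 0.063. Between 6 and 4 weeks Cxcl16 differed by 1.47 ± 0.12 in SHR rats (adjusted p = 0.0145) and by 0.09 ± 0.12 in Dahl rats (adjusted p = 0.955). The strain calls over both ages and at 4 weeks held with any 1 array left out, while the age call in SHR was lost without replicate 2 of SHR 4 weeks or either SHR 6 weeks array (adjusted p 0.0531 to 0.08).

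Among the ligands of Cxcr3, the receptor of activated T and natural killer cells, Cxcl10 (whose window with the response element is printed above) had its low values in the youngest SHR rats. Cxcl10 read 5.19 and 5.78 in Dahl rats at 6 weeks, 4.73 and 4.60 in Dahl rats at 4 weeks, 5.01 and 4.73 in SHR rats at 6 weeks, and 2.54 and 3.01 in SHR rats at 4 weeks. The SHR 6 weeks rats overlapped the Dahl 4 weeks rats. Over both ages it was 2.39-fold higher in Dahl (1.26 ± 0.18, SE, n = 4 per strain, adjusted p = 0.0155). The strain difference was 0.62 ± 0.26 at 6 weeks (adjusted p = 0.163) and 1.89 ± 0.26 at 4 weeks (adjusted p = 0.0214). In SHR rats Cxcl10 was 4.27-fold higher at 6 weeks (2.09 ± 0.26, adjusted p = 0.034), and in Dahl rats the age difference was 0.82 ± 0.26 (adjusted p = 0.478). The call over both ages was lost without replicate 2 of Dahl 4 weeks or of SHR 6 weeks (adjusted p 0.0522 and 0.0585). The calls at 4 weeks and for age in SHR were each lost in 6 of the 8 single omissions, namely any array of the groups compared and either array of a further group, SHR 6 weeks for the call at 4 weeks (adjusted p 0.0537 to 0.0863) and Dahl 4 weeks for the age call (adjusted p 0.076 to 0.159).

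Cxcl11, the next gene on the chromosome, had another pattern. Its values were 8.51 and 8.54 in Dahl rats at 6 weeks, 6.81 and 7.32 in Dahl rats at 4 weeks, 6.34 and 5.80 in SHR rats at 6 weeks, and 6.37 and 6.84 in SHR rats at 4 weeks. The Dahl 6 weeks rats stood clear of all other rats, and the Dahl 4 weeks rats overlapped the SHR 4 weeks rats. Dahl exceeded SHR 2.74-fold over both ages (1.45 ± 0.20, SE, n = 4 per strain, adjusted p = 0.0136), a call that held with any 1 array left out. At 6 weeks the excess was 5.46-fold (2.45 ± 0.28, adjusted p = 0.032), and at 4 weeks the log2 difference was 0.46 ± 0.28 (adjusted p = 0.268). Cxcl11 differed by 1.46 ± 0.28 between 6 and 4 weeks in Dahl rats (adjusted p = 0.256) and by -0.53 ± 0.28 in SHR rats (adjusted p = 0.504), and the interaction of 1.99 ± 0.40 had an adjusted p of 0.16. The call at 6 weeks was lost without replicate 2 of Dahl 6 weeks, either SHR 6 weeks array or either SHR 4 weeks array (adjusted p 0.0637 to 0.111).

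Cxcl9, the third ligand of Cxcr3 and a gene that is typically induced by interferon gamma, stayed near the bottom of the array's range. Its main probe set (1382454_at) read 2.10 and 2.08 in Dahl rats at 6 weeks, 2.11 and 2.10 in Dahl rats at 4 weeks, 2.78 and 2.16 in SHR rats at 6 weeks, and 2.15 and 2.18 in SHR rats at 4 weeks. Every Dahl value lay below every SHR value, with replicate 1 of SHR 6 weeks (2.78) standing apart above the rest. The difference over both ages was -0.22 ± 0.14 (SE, n = 4 per strain, adjusted p = 0.246). It moved most with the SHR 6 weeks arrays, being -0.065 without replicate 1 (adjusted p = 0.117) and -0.38, a call, without replicate 2 (adjusted p = 0.0161). Its other probe set (1373544_at) read 2.00 to 2.02 in Dahl rats and 2.05 to 2.06 in SHR rats, a difference of -0.05 ± 0.01 (adjusted p = 0.0599). The median difference of the dimmest of the 4 groups of probe sets, to which Cxcl9 belongs, was -0.06, and 0.193% of that group were called higher, so a small difference at this signal cannot be told apart from the offset of dim probe sets.

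**Figure D2:**
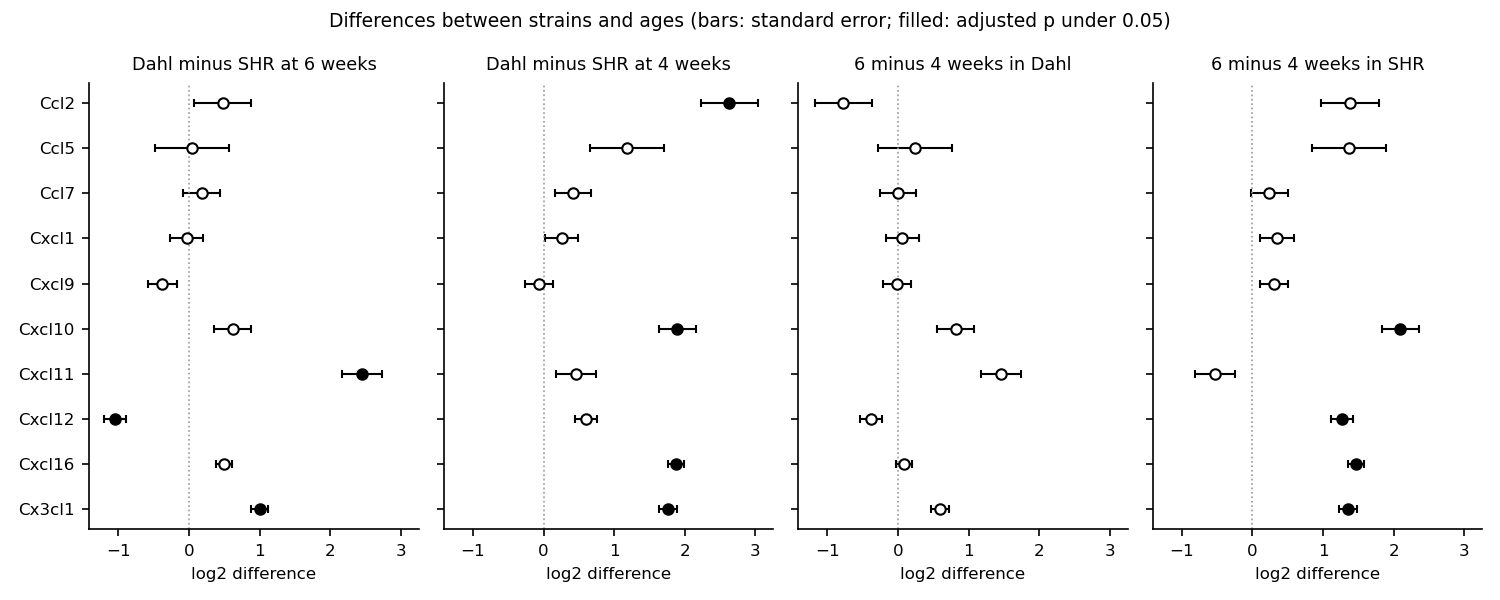
Log2 differences with their standard errors (horizontal axis) of the 10 chemokine genes for Dahl minus SHR at 6 and 4 weeks and for 6 minus 4 weeks in Dahl and in SHR, with filled points at an adjusted p under 0.05. Cxcl11 has its strain difference at 6 weeks (2.45), Ccl2, Cxcl10, Cxcl16 and Cx3cl1 have the larger one at 4 weeks, and Cxcl12 is below 0 at 6 weeks (-1.05).

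Ccl2 (monocyte chemoattractant protein), the chief attractant of Ccr2-bearing monocytes, had the largest log2 strain difference of the 10 genes over both ages and at 4 weeks. Ccl2 read 5.97 and 7.09 in Dahl rats at 6 weeks, 7.46 and 7.16 in Dahl rats at 4 weeks, 6.23 and 5.88 in SHR rats at 6 weeks, and 4.87 and 4.48 in SHR rats at 4 weeks. The Dahl 6 weeks rats were far apart, and replicate 1 lay within the SHR 6 weeks values. Over both ages Ccl2 was 2.94-fold higher in Dahl (1.56 ± 0.29, SE, n = 4 per strain, adjusted p = 0.0239), and at 4 weeks 6.21-fold higher (2.63 ± 0.41, adjusted p = 0.0266). At 6 weeks the difference was 0.48 ± 0.41 (adjusted p = 0.409). The age difference was -0.78 ± 0.41 in Dahl rats (adjusted p = 0.693) and 1.38 ± 0.41 in SHR rats (adjusted p = 0.205). The call over both ages was lost without either Dahl 4 weeks array, replicate 2 of SHR 4 weeks or either SHR 6 weeks array (adjusted p 0.0598 to 0.0804), and that at 4 weeks without any array but those of Dahl 6 weeks (adjusted p 0.0653 to 0.104).

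Ccl7, the chromosomal neighbour of Ccl2 that also acts on Ccr2, read 3.74 and 4.20 in Dahl rats at 6 weeks, 4.19 and 3.75 in Dahl rats at 4 weeks, 3.85 and 3.74 in SHR rats at 6 weeks, and 3.80 and 3.31 in SHR rats at 4 weeks. All 4 groups overlapped, and the difference over both ages was 0.30 ± 0.18 (SE, n = 4 per strain, adjusted p = 0.232, 95% interval -0.18 to 0.77). Ccl5 (RANTES), an attractant of T cells and monocytes, read 3.39 and 4.75 in Dahl rats at 6 weeks, 4.09 and 3.58 in Dahl rats at 4 weeks, 4.34 and 3.72 in SHR rats at 6 weeks, and 2.88 and 2.43 in SHR rats at 4 weeks. Both SHR 4 weeks rats were below all others, and the remaining groups overlapped. Its difference of 0.61 ± 0.37 over both ages did not pass (adjusted p = 0.224), being 0.95 without replicate 1 of Dahl 6 weeks (adjusted p = 0.0558) and 0.27 without replicate 2 (adjusted p = 0.442), and neither did the age difference of 1.37 ± 0.52 in SHR rats (adjusted p = 0.322).

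Cxcl1, a neutrophil attractant acting through Cxcr2, whose window is printed above, varied little at a mean below the median of all probe sets. It read 2.83 and 3.26 in Dahl rats at 6 weeks, 2.99 and 2.98 in Dahl rats at 4 weeks, 3.13 and 3.02 in SHR rats at 6 weeks, and 2.44 and 3.02 in SHR rats at 4 weeks. A single array, replicate 1 of SHR 4 weeks, lay apart below the rest. The strain difference over both ages was 0.11 ± 0.17 (SE, n = 4 per strain, adjusted p = 0.588, 95% interval -0.31 to 0.54), and it changed sign, to -0.031, without that array (adjusted p = 0.857).

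Cxcl12 (stromal cell-derived factor 1), the constitutive ligand of Cxcr4 that podocytes and stromal cells make, was the only gene of the 10 called lower in Dahl in any comparison here. Its main probe set (1369633_at) read 10.03 and 10.04 in Dahl rats at 6 weeks, 10.19 and 10.64 in Dahl rats at 4 weeks, 11.06 and 11.11 in SHR rats at 6 weeks, and 9.88 and 9.75 in SHR rats at 4 weeks. The SHR 6 weeks rats were the highest of all and the SHR 4 weeks rats the lowest, with both Dahl groups between them. In Dahl rats Cxcl12 was lower than in SHR rats at 6 weeks, by 2.07-fold (-1.05 ± 0.15, SE, n = 2 per group, adjusted p = 0.045), while at 4 weeks the difference was 0.60 ± 0.15 (adjusted p = 0.0685). In SHR rats it was 2.41-fold higher at 6 than at 4 weeks (1.27 ± 0.15, adjusted p = 0.0314), and in Dahl rats the age difference was -0.38 ± 0.15 (adjusted p = 0.585). The interaction of -1.65 ± 0.22 had an adjusted p of 0.0752. The call at 6 weeks was lost in 6 of the 8 single omissions, all but those of the Dahl 4 weeks arrays (adjusted p 0.0596 to 0.165), and under quantile normalization (adjusted p = 0.0504). The age call in SHR was lost without any 1 array of SHR or of Dahl 6 weeks (adjusted p 0.0558 to 0.145).

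The other probe sets of Cxcl12 had the same order of the extreme groups. The probe set 1387655_at read 5.21 and 5.33 in Dahl rats at 6 weeks, 5.62 and 6.03 in Dahl rats at 4 weeks, 5.96 and 5.80 in SHR rats at 6 weeks, and 4.35 and 4.42 in SHR rats at 4 weeks. On it Dahl minus SHR was -0.61 ± 0.15 at 6 weeks (adjusted p = 0.0886), Dahl was 2.71-fold higher at 4 weeks (1.44 ± 0.15, adjusted p = 0.0123), and the interaction of -2.05 ± 0.21 passed (adjusted p = 0.0454). The third, 1388583_at, read 7.93 and 7.71 in Dahl rats at 6 weeks, 7.90 and 8.36 in Dahl rats at 4 weeks, 8.52 and 8.18 in SHR rats at 6 weeks, and 7.18 and 7.48 in SHR rats at 4 weeks, and none of its comparisons passed. Over both ages the sign differed between probe sets, being -0.22 ± 0.11 on the main one, 0.14 ± 0.15 on 1388583_at and 0.42 ± 0.11 on 1387655_at, of which only the last passed (adjusted p 0.149, 0.49 and 0.0412). Without replicate 2 of Dahl 4 weeks the main one was called lower over both ages (-0.34, adjusted p = 0.0327), and the interaction call of 1387655_at was kept in 1 of the 8 single omissions, that of replicate 1 of Dahl 4 weeks (adjusted p otherwise 0.0519 to 0.154).

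**Figure D3:**
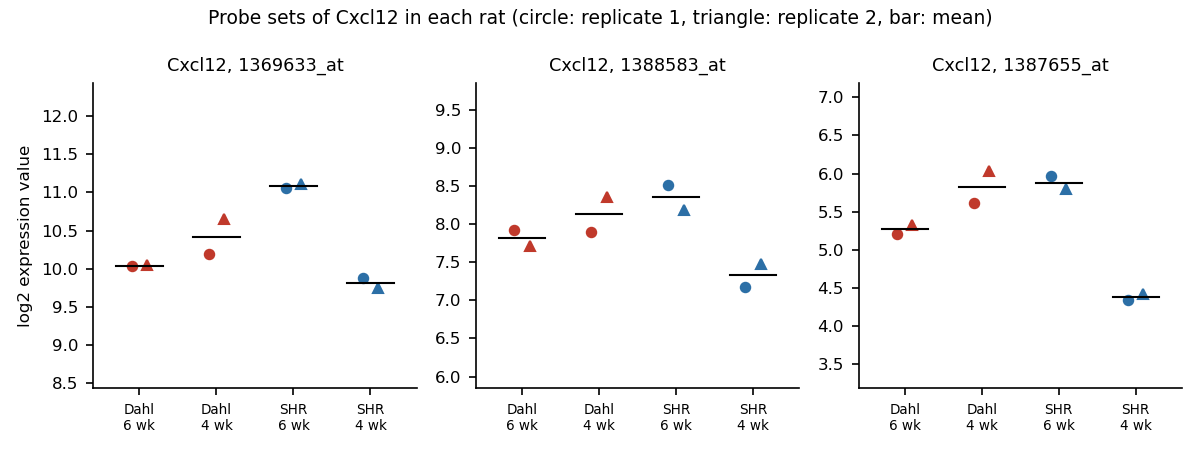
Log2 expression value (vertical axis, own range per panel) of the 3 probe sets of Cxcl12 in each rat, by strain and age, with a circle for replicate 1, a triangle for replicate 2 and a bar for the mean. On every probe set the SHR 4 weeks rats are the lowest, and the SHR mean at 6 weeks is above the Dahl mean at 6 weeks.

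Across the 8 arrays, which share strain and age structure, the genes that moved alike can be given as a description. Cxcl16 and Cx3cl1 correlated at a Pearson r of 0.967, Cxcl10 with Cxcl16 at 0.945 and with Cx3cl1 at 0.940, and Ccl2 with Cxcl16 at 0.890. The neighbours Cxcl10 and Cxcl11 correlated at 0.503, and Cxcl11 with Cxcl12 at -0.487. For the 3 genes with the largest SD over the arrays, the most alike genes of the 14216 others were Pitpnm3 (r = 0.993), Cd300c2 (0.992) and the immunoproteasome subunit Psmb9 (0.992) for Cxcl10, B4galt5 (0.993), Smc6 (0.986) and Hsd17b7 (0.981) for Ccl2, and Entpd1 (0.975), Nr4a2 (0.964) and Zfp120 (0.956) for Cxcl11.

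The receptors of these chemokines were mostly dim. Of 10 measured, none was called higher in Dahl over both ages and 2 were called lower (as were 24.2% of all probe sets), both atypical receptors that take up chemokines without signalling. Ackr2, which clears inflammatory CC chemokines, read 3.69 and 3.62 in Dahl rats at 6 weeks, 3.79 and 3.61 in Dahl rats at 4 weeks, 4.05 and 4.07 in SHR rats at 6 weeks, and 4.14 and 4.22 in SHR rats at 4 weeks (difference -0.44 ± 0.05, adjusted p = 0.00969). Its call held with any 1 array left out. The dim Ackr1 differed by -0.23 ± 0.06 (adjusted p = 0.0404), a call kept in 2 of the 8 single omissions (adjusted p up to 0.112), namely those of the SHR 4 weeks arrays. Ccr1, Ccr2, Ccr3, Cxcr2, Cxcr3 and Cx3cr1 all had differences between -0.06 and -0.04, about the offset of dim probe sets, and their values of 1.95 to 2.43 give no measure of how many receptor-bearing cells were present.

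The receptors of Cxcl12 were bright enough to read. Cxcr4, its signalling receptor, read 5.83 and 5.92 in Dahl rats at 6 weeks, 5.81 and 6.09 in Dahl rats at 4 weeks, 6.61 and 6.90 in SHR rats at 6 weeks, and 5.63 and 5.60 in SHR rats at 4 weeks. As with the main probe set of Cxcl12, the SHR 6 weeks rats were highest and the SHR 4 weeks rats lowest. Cxcr4 was lower in Dahl at 6 weeks (-0.88 ± 0.13, adjusted p = 0.0469) and higher at 6 than at 4 weeks in SHR rats (1.14, adjusted p = 0.0306), and both calls were lost with any 1 of the 8 arrays left out (adjusted p 0.0594 to 0.144 and 0.0516 to 0.111). Ackr3, the scavenging receptor of Cxcl12 and Cxcl11, read 11.33 and 11.80 in Dahl rats at 6 weeks, 11.58 and 11.87 in Dahl rats at 4 weeks, 11.37 and 11.18 in SHR rats at 6 weeks, and 11.28 and 11.19 in SHR rats at 4 weeks, with a difference over both ages of 0.39 ± 0.13 (adjusted p = 0.0712).

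Of 21 other chemokines measured, 1 was called higher over both ages and 10 lower, beside 10.6% and 24.2% of all probe sets. The higher one was Ccl6, a CC chemokine of myeloid cells in mice, at 8.36 and 8.68 in Dahl rats at 6 weeks, 7.00 and 7.12 in Dahl rats at 4 weeks, 7.60 and 7.39 in SHR rats at 6 weeks, and 5.18 and 4.25 in SHR rats at 4 weeks (1.69 ± 0.23, adjusted p = 0.0135, and 0.0541 without replicate 2 of SHR 6 weeks). Cxcl13, the B cell attractant, read 6.34 and 6.72 in Dahl rats at 6 weeks, 8.14 and 8.89 in Dahl rats at 4 weeks, 9.19 and 9.23 in SHR rats at 6 weeks, and 7.99 and 8.17 in SHR rats at 4 weeks. It was lower in Dahl at 6 weeks (-2.68 ± 0.27, adjusted p = 0.0258), the same direction as Cxcl12 at that age, and at 4 weeks the difference was 0.43 (adjusted p = 0.284). The call at 6 weeks was lost without replicate 2 of Dahl 6 weeks or any 1 SHR array (adjusted p 0.0659 to 0.104). Apart from Cxcl13 (-1.13) and Cxcl3 (-0.29, named after its value was seen), the falls over both ages were of -0.05 to -0.11, the size of the offset of dim probe sets, and under quantile normalization or without replicate 2 of Dahl 6 weeks 2 of the 21 rather than 10 were lower.

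Genes of the pathways that induce chemokines were counted from lists. Of 28 interferon signalling genes and targets, 17 were higher in Dahl over both ages and none lower (median 0.88, beside 10.6% of all probe sets called higher). At 4 weeks 12 were higher and at 6 weeks 1, beside 5.63% and 1.65% of all probe sets. In SHR rats 14 were higher at 6 than at 4 weeks (median 1.57, beside 1.50% of all probe sets called higher). In Dahl rats 1 was called higher at 6 weeks, beside 0.0805% of all probe sets called in either direction. The median there was 0.90, with 27 of the 28 above 0. The antiviral gene Rsad2 read 10.43 and 11.18 in Dahl rats at 6 weeks, 9.12 and 9.63 in Dahl rats at 4 weeks, 8.81 and 8.90 in SHR rats at 6 weeks, and 6.73 and 6.78 in SHR rats at 4 weeks (2.28 ± 0.21 over both ages, adjusted p = 0.00757). Like Cxcl10, it was lowest in the SHR 4 weeks rats and highest in the Dahl 6 weeks rats. Usp18 (1.88), Ifit2 (1.31) and Ifi44 (1.06) were also higher, and all 4 calls held with any 1 array left out. Without replicate 2 of Dahl 6 weeks 11 of the 28 genes were called higher over both ages and none at 6 weeks. The single call at 6 weeks was Rsad2 (1.95, adjusted p = 0.0459).

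Of 15 NF-kB genes measured, 2 were higher over both ages, Tnfaip3 (1.02 ± 0.09, adjusted p = 0.00769), an inhibitor that NF-kB itself induces, and Nfkb1 (0.44 ± 0.07, adjusted p = 0.0198). Nfkbib (-0.49) and the dim Tnf (-0.07) were lower, and the median was 0.16. Of all probe sets 10.6% were called higher and 24.2% lower, so these counts were near or below the background. The Tnfaip3 call held with any 1 array left out, and that of Nfkb1 was lost without replicate 2 of Dahl 6 weeks, replicate 2 of Dahl 4 weeks or either SHR 6 weeks array (adjusted p 0.0504 to 0.0673). Under quantile normalization 2 of the 15 were higher and none lower, and without replicate 2 of Dahl 6 weeks 1 was higher and none lower. Of 5 proteases that cleave or shed chemokines, Mmp2 was 3.56-fold higher (1.83 ± 0.07, adjusted p = 0.00173) and Adam17, a sheddase of Cx3cl1, 1.40-fold higher (0.49 ± 0.14, adjusted p = 0.0471), while Adam10 (0.47) and Dpp4 (-0.20) did not pass. The Adam17 call was kept in 1 of the 8 single omissions, that of replicate 1 of Dahl 6 weeks (adjusted p otherwise 0.0542 to 0.126).

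The gelatinase Mmp9, named after its values were seen, had strain differences of opposite sign at the 2 ages, which averaged 0.20 over both (adjusted p = 0.169). It read 10.49 and 10.69 in Dahl rats at 6 weeks, 10.96 and 11.35 in Dahl rats at 4 weeks, 11.74 and 11.85 in SHR rats at 6 weeks, and 9.49 and 9.59 in SHR rats at 4 weeks. As with the main probe set of Cxcl12, the SHR 6 weeks rats were highest and the SHR 4 weeks rats lowest, with no overlap between groups. Mmp9 was lower in Dahl at 6 weeks (-1.20 ± 0.15, adjusted p = 0.0352) and higher at 4 weeks (1.61 ± 0.15, adjusted p = 0.01), and in SHR rats it was higher at 6 than at 4 weeks (2.25 ± 0.15, adjusted p = 0.00986). The call at 4 weeks held with any 1 array left out. The call at 6 weeks was lost without replicate 2 of Dahl 6 weeks or any 1 SHR array (adjusted p 0.076 to 0.136), and the age call without either SHR 6 weeks array (adjusted p 0.0614 and 0.0701).

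Of 7 endothelial adhesion molecules, which hold leukocytes at the vessel wall, 3 were higher, Icam1 (0.71 ± 0.11, adjusted p = 0.0177), Icam2 (0.76 ± 0.10, adjusted p = 0.0132) and Vcam1 (0.69 ± 0.15, adjusted p = 0.0312), and 2 dim ones were lower, Sele (-0.17, named after its value was seen) and Madcam1 (-0.06), beside 10.6% of all probe sets called higher and 24.2% lower. These calls were over both ages. At 4 weeks 1 was higher and at 6 weeks none was called, beside 5.63% and 1.65% of all probe sets called higher. Over both ages, under quantile normalization 3 were higher and none lower, and without replicate 2 of Dahl 6 weeks 2 were higher and none lower. Without replicate 2 of SHR 6 weeks the adjusted p of Icam2 was 0.0534 and that of Icam1 0.0534 to 0.0603 in the 3 omissions that lost its call, while the Vcam1 call was kept in 2 of the 8.

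Markers of leukocytes, which chemokines attract and which also make them, differed between the strains in both directions. In bulk glomeruli, fewer cells of a type and less RNA per cell cannot be told apart. Of 24 leukocyte markers, 7 were higher and 7 lower in Dahl over both ages (median -0.03, beside 10.6% and 24.2% of all probe sets). At 4 weeks 6 were higher and 3 lower, beside 5.63% and 1989 of 31042 probe sets. At 6 weeks none was higher and 1 lower, beside 1.65% and 1.63%. In SHR rats 5 were higher at 6 than at 4 weeks, beside 1.50% of all probe sets. Of the 24, 9 were above the median signal. The summed intensity of the 24 was 1833 to 3644 in Dahl rats and 829.3 to 2464 in SHR rats. Their score, the median deviation from their means over all arrays, went the other way, at -0.028 to -0.013 in Dahl rats and 0.012 to 0.057 in SHR rats. As most of the 24 were dim, so small a gap cannot be told apart from the offset of dim probe sets. The median difference of all probe sets was -0.05, and under quantile normalization that of the 24 was 0.02. The pan-leukocyte gene Ptprc read 6.99 and 7.45 in Dahl rats at 6 weeks, 6.33 and 6.62 in Dahl rats at 4 weeks, 6.86 and 6.68 in SHR rats at 6 weeks, and 4.69 and 4.35 in SHR rats at 4 weeks. As with Cxcl10, Cxcl16 and Cx3cl1, the SHR 4 weeks rats were lowest (1.20 ± 0.15 over both ages, adjusted p = 0.0116). The macrophage genes Csf1r (1.31) and Cd68 (1.44) and the leukocyte gene Coro1a (1.55) were higher, the macrophage gene Mrc1 was lower (-1.76 ± 0.21, adjusted p = 0.0106), and the T cell gene Cd3e, at 3.22 to 3.38 in Dahl rats and 3.68 to 3.78 in SHR rats, was lower by a log2 difference of -0.44. Except for Cd68, whose call was kept in 2 of the 8 single omissions, these calls held with any 1 array left out. Under quantile normalization 5 of the 24 were higher and 2 lower, and without replicate 2 of Dahl 6 weeks 4 were higher and 2 lower. Their part in the chemokine differences was not tested.

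Glomerular and tubular markers differed between the strains too. Over both ages 3 of 8 podocyte, 5 of 9 glomerular endothelial and 7 of 10 mesangial markers were higher in Dahl and none lower (medians 0.36, 0.38 and 0.89), while 2 of 15 proximal tubule and 3 of 10 distal nephron markers were lower and none higher (medians -1.09 and -0.81). At 4 weeks 2 podocyte, 1 glomerular endothelial and 6 mesangial markers were higher, and at 6 weeks only 1 mesangial marker, beside 5.63% and 1.65% of all probe sets. Of the tubular markers, 1 distal nephron marker was lower at 4 weeks and none at 6 weeks, beside 1989 of 31042 probe sets and 1.63%. Over both ages 10.6% of all probe sets were called higher and 24.2% lower. Lower calls were fewer among brighter probe sets, with 854 of 7760 and 1015 of 7761 in the 2 brighter of 4 equal groups. Of the proximal tubule markers 14 of 15, and of the distal nephron markers 7 of 10, were above the median signal. The proximal count over both ages was near the share of the brighter groups and the distal count above it. Both tubular medians lay well below the -0.05 of all probe sets. The summed intensity of the proximal tubule markers was 16080 to 47490 in Dahl rats and 54280 to 81980 in SHR rats. The part of this shift in the chemokine values was not tested. Of 6 other chemokine receptors, 2 were lower, the dim Cxcr1 (-0.06) and Ackr4 (-0.26), beside 24.2% of all probe sets. The Cxcr1 call was lost in all 8 single omissions (adjusted p 0.0603 to 0.13) and that of Ackr4 in 6 of them, all but those of the Dahl 6 weeks arrays (adjusted p 0.0687 to 0.107).

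**Figure D4:**
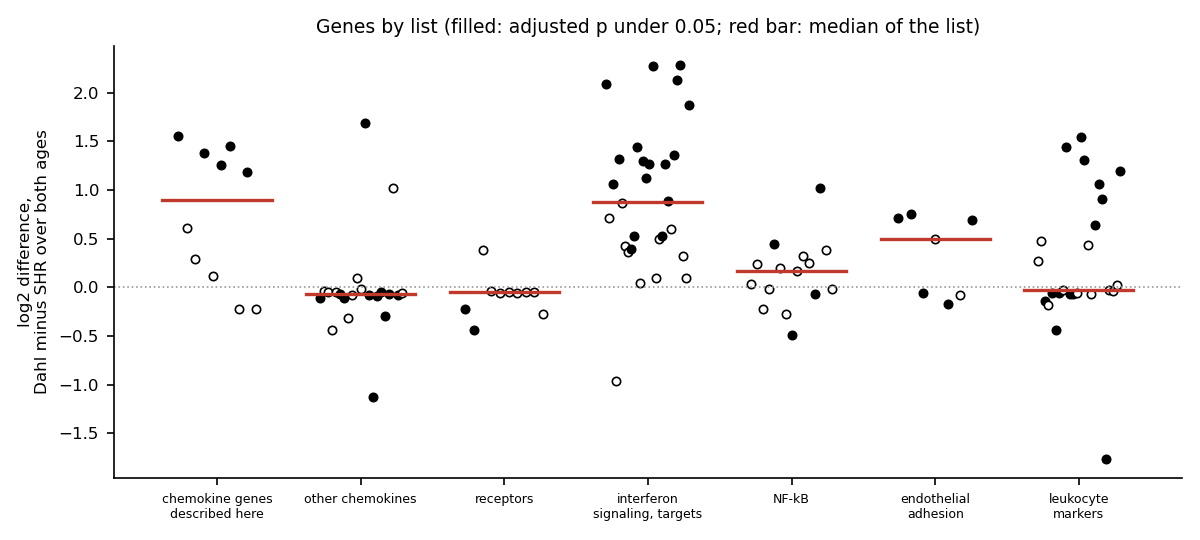
Log2 difference of Dahl minus SHR over both ages (vertical axis) for each gene of the 10 chemokine genes and of 6 other lists, with filled points at an adjusted p under 0.05 and a red bar at the median of the list. The chemokine genes (median 0.90) and the interferon list (median 0.88) lie mostly above 0, and the other chemokines and the receptors cluster just below it.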

How the data were processed

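Glomerular RNA of 8 rats was labeled and hybridized to Affymetrix rat genome arrays, with 2 rats for each strain and age, which the labels call biological replicates. The values used are on the log2 scale, as deposited by the authors after background correction, normalization across arrays and summary of each probe set. RMA and GCRMA both appear in the submitters' processing notes. Which made these values, and its version, is not given in the sources used. Either method normalizes across arrays, so differences are relative to the whole array. The deposited values still differed in distribution, with array medians of 4.14 to 4.16 in Dahl rats and 4.11 to 4.12 in SHR rats. Quantile normalization moved the median difference of all probe sets over both ages from -0.05 to -0.005. The 2 methods treat dim probe sets differently, so folds of dim genes are uncertain. For the main results the values were not normalized again.

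The table held 31099 probe sets, of which 57 were controls and 31042 were tested. The array's annotation named 1 gene for 20826 of these, several for 436, which stay unnamed, and none for 9780. All 10 chemokine genes were found. Group means were fitted in all 8 arrays with limma 3.58.1 in R 4.3.3 (4 residual and 0.921 prior degrees of freedom), which gave 6 comparisons, with Benjamini-Hochberg adjustment over all tested probe sets at 0.05. The interaction is Dahl minus SHR at 6 weeks less Dahl minus SHR at 4 weeks. The procedure was run on simulated data to check the sign and size of its estimates. That simulation held no offset of dim probe sets and set no condition on false calls. The number of arrays limits the precision.

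The members, the 14 gene lists (177 of 197 genes measured) and the comparisons were chosen with earlier results of these data known. Named genes are all members, all their measured receptors, up to 4 genes of each other list with the smallest p over both ages, cell type markers, and the 3 genes most correlated with each of the 3 most variable members. Promoter windows came from RefSeq (GRCr8), with 8 of the 10 genes matched (all but Ccl2 and Ccl5). Alternatives were quantile normalization, an intensity trend with robust variance, only the brighter probe sets, the mean of a gene's probe sets, a replicate block, the methods' t-test (Student's unpaired test of the statistics section, which names no test for the arrays), and leaving out each array. List counts under quantile normalization and without replicate 2 of Dahl 6 weeks were added after seeing the data. The authors' pathway step was not repeated.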

Additional observations from a re-analysis of the deposited data

Results flagged for a closer look

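In 4 of the probe sets described, the strain difference differed between ages by the test of the interaction, which sets the strain difference at 6 weeks against the one at 4 weeks. For Cxcl12 on the probe set 1387655_at the interaction was -2.05 ± 0.21 (SE, adjusted p = 0.0454), with Dahl minus SHR at -0.61 at 6 weeks and 1.44 at 4 weeks. The other probe sets of Cxcl12 had interactions of -1.65 (adjusted p = 0.0752) and -1.33 (adjusted p = 0.201), in the same direction. For the matrix protease Mmp2 the interaction was -2.44 ± 0.13 (adjusted p = 0.0131), with strain differences of 0.61 at 6 weeks and 3.05 at 4 weeks. For the gelatinase Mmp9 it was -2.82 ± 0.21 (adjusted p = 0.0289), with strain differences of -1.20 at 6 weeks and 1.61 at 4 weeks. For Scnn1a, a sodium channel subunit of the distal nephron, it was 1.94 ± 0.21 (adjusted p = 0.048), with strain differences of -0.30 at 6 weeks and -2.24 at 4 weeks. In Mmp2 and Mmp9 the SHR 4 weeks rats were the lowest of all rats and in Scnn1a the highest. With 1 array left out, the interaction call was kept in 7 of the 8 omissions for Mmp2 (adjusted p = 0.0674 without replicate 1 of SHR 6 weeks), in 4 for Mmp9 (adjusted p 0.0643 to 0.112 without any 1 SHR array), in 1 for 1387655_at (adjusted p otherwise 0.0519 to 0.154) and in none for Scnn1a (adjusted p 0.0693 to 0.116). Groups of 2 rats are too small to look for a single outlying rat.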

How the results depend on the processing

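Of 21 single values of the chemokine genes, 311 alternative values were computed, of which 228 kept direction and side of the threshold, 79 kept direction and lost the call, 2 gained a call and 2 changed sign. The calls gained were Cxcl9 (-0.38, without replicate 2 of SHR 6 weeks) and Cxcl12 (-0.34, without replicate 2 of Dahl 4 weeks), both lower in Dahl over both ages. The changes of sign were also over both ages and uncalled, Cxcl1 at -0.031 without replicate 1 of SHR 4 weeks (0.11 in all arrays, -0.031 to 0.26 over the single omissions) and Cxcl12 at 0.11 as the mean of its probe sets (-0.22 on the main one). Single omissions gave 4 to 5 calls over both ages (3 to 5 of the 5 kept), 2 to 4 at 4 weeks (2 to 4 of the 4 kept), 0 to 3 at 6 weeks (0 to 3 of the 3 kept), 0 to 3 for age in SHR (0 to 3 of the 4 kept), 0 for age in Dahl and 0 to 1 for the interaction (Cxcl12, without either Dahl 4 weeks array). At 6 weeks there were 0 without replicate 2 of Dahl 6 weeks, replicate 1 of SHR 6 weeks or either SHR 4 weeks array, and the 1 call without replicate 2 of SHR 6 weeks was Cxcl9, lower in Dahl. Quantile normalization left 1 call at 6 weeks (Cxcl11), and with only the brighter probe sets the interaction gave 2 (Cxcl12 and Cxcl16). The methods' t-test with Benjamini-Hochberg adjustment called 1 over both ages (Cx3cl1) and 0 at 4 weeks, at 6 weeks and for age in SHR, and without adjustment it called 1 for age in Dahl (Cxcl11). It was not run for the interaction.

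The replicate number served only as a name. The deviations of same-numbered rats correlated at -0.23 to 0.24 between groups, so the numbers were not taken to pair rats. With the replicate number as a block, 5 members were called over both ages, 3 at 4 weeks (Ccl2 lost), 0 at 6 weeks, 2 for age in SHR (Cxcl16 and Cx3cl1) and 0 for age in Dahl and for the interaction.

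Over all probe sets, 3283 were higher and 7504 lower in Dahl over both ages, against 2261 and 2479 after quantile normalization and 2408 and 3190 with the block. The calls at 4 weeks were 3738, against 2794 and 2028, those at 6 weeks 1017, against 695 and 339, those for age in SHR 751, against 763 and 360, and those for the interaction 161, against 187 and 31. Of the lower calls, 2844 and 2791 lay in the 2 dimmest of 4 equal groups of probe sets, whose median differences were -0.06 and -0.11. The cause of these changes was not tested.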
